A study of Danio rerio with 8 samples.

Results

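The genes described here make, break down and sense cyclic GMP in vertebrate photoreceptors: the subunits of phosphodiesterase PDE6 (pde6a, pde6b, pde6c, pde6g and pde6h), the cyclic GMP-gated channel gene cnga1, the guanylate cyclase gene gucy2f, and the guanylate cyclase activating protein (GCAP) genes guca1a, guca1b and guca1c. They were taken by symbol from the authors' deposited table of differential expression, where each symbol has 1 row, which gives 10 genes of 32433. The RNA came from zebrafish embryos, aged 24 to 26 hours post-fertilization, that carry Tg(flhBAC:kaede)vu376, a transgene in which regulatory sequence of the pineal gene flh drives the fluorescent protein Kaede. Kaede-positive cells of the heads were sorted, so the cells collected depend on where flh sequence is active. All groups carry the transgene. The control group was not injected (4 libraries), and the other group was injected with a splice-blocking morpholino (MO), an antisense oligomer, against tbx2b, a T-box gene needed in the pineal complex (2 libraries at 5 ng and 2 at 6 ng). According to the labels, each library has 1 technical replicate among the others, so a group rests on 2 RNA samples, and p values then measure a spread that may be partly technical. Injection and the loss of Tbx2b cannot be told apart, since the controls were uninjected.

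In the dark, guanylate cyclase keeps cyclic GMP high in the photoreceptor outer segment and cation channels gated by cyclic GMP stay open. Light acts through an opsin and the G protein transducin to release PDE6 from its inhibitory subunits, PDE6 hydrolyses cyclic GMP, and the channels close. Calcium then falls, and the GCAPs, which are calcium sensors, turn the cyclase up again and restore the dark state. The zebrafish pineal organ holds photoreceptors of its own that use the same cascade, and at this stage they are among the first photoreceptors of the embryo to differentiate.

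Expression is given as FPKM, fragments scaled to transcript length and to the mapped fragments of the library, with 1 value per gene and group computed by the authors. Values per library are not part of the table, so neither a spread nor a depth per library can be stated, and no order of levels below carries an error. A gene is said to have fallen or risen where the authors' test called it (q under 0.05 over 18954 tested genes). Log2 fold changes are negative where the knockdown is lower. With bulk RNA, fewer photoreceptors and less of each RNA per photoreceptor cannot be told apart.

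Pde6g, the inhibitory subunit gene of rod-type PDE6, fell 2.70-fold, from 33.9 to 12.5 FPKM, and was the single member that the authors called. Of all 10 genes, 9 were at a lower FPKM in the knockdown and 1, guca1b, at a higher one; 54.5% of all 23838 rows above 0 in both groups were lower. A value at least 2-fold lower was found for 7 of the 10, beside 7.17% of those rows. The median log2 fold change of the 10 genes was -1.28, beside -0.038 over the 23838 rows. The authors tested 7 members and left out pde6b, cnga1 and guca1b, which were the 3 lowest genes in wild-type. With 1 call among the 7 tested, the count can be read beside 0.332% of tested genes called lower. At a q under 0.1 the member count was again 1, beside 0.506% of tested genes.

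**Figure D1:**
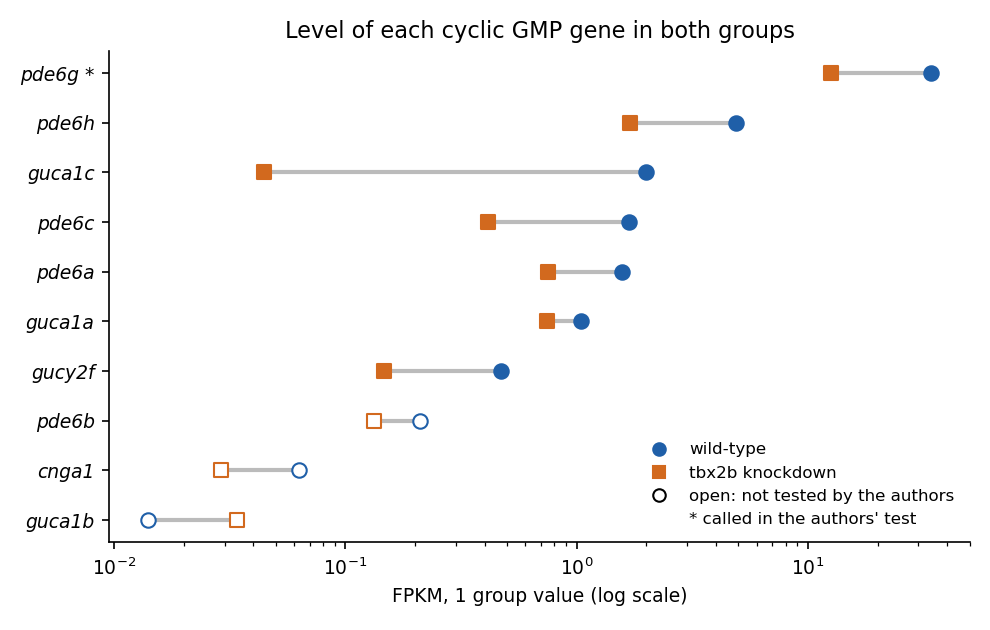
FPKM of each of the 10 genes on a log axis, as 1 group value for wild-type (circles) and tbx2b knockdown (squares); open symbols are genes that the authors did not test, and an asterisk marks the call. The knockdown value lies to the left for every gene but guca1b, and the wild-type values run from 33.9 FPKM for pde6g down to 0.014 FPKM for guca1b.

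The catalytic subunit genes of PDE6 were expressed at low levels. In rods of mammals the enzyme is a dimer of the products of PDE6A and PDE6B, and in cones a dimer of the product of PDE6C. Pde6a (ENSDARG00000000380, Zv9 chromosome 14, 26083458 to 26112198) stood at 1.57 FPKM in wild-type cells and 0.754 FPKM in knockdown cells. This difference, 2.08-fold, was not called (p of 0.0086 and q of 0.444, authors' deposited table). Pde6c (ENSDARG00000078461, chromosome 12), the cone-type gene, was at 1.69 FPKM and 0.412 FPKM. It was 4.10-fold lower and not called (p of 0.0858 and q of 0.999, authors' deposited table). Pde6b (ENSDARG00000011671, chromosome 21, 19184332 to 19204482) was at 0.211 FPKM and 0.133 FPKM and was not tested. In wild-type cells pde6a and pde6c were therefore at similar levels, with 0.930 FPKM of pde6a for each FPKM of pde6c, whereas in the knockdown this ratio was 1.83. Pde6a stood 7.44 times above pde6b in wild-type and 5.67 times above it in the knockdown. The file names these rows pde6a and pde6b, while the table of current names pairs both with the symbol PDE6B. The error of these ratios is unknown.

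The inhibitory subunit genes were the most abundant members in both groups. The small proteins they encode block the catalytic site of PDE6 until transducin displaces them. Pde6g (ENSDARG00000022820, chromosome 12, 37671563 to 37679616), at 33.9 FPKM, lay above 86.1% of all tested genes in wild-type. Its fall to 12.5 FPKM carried the smallest p and q of the authors' deposited table, 5e-05 and 0.0176, which 54 genes share. Among tested genes at a mean of 10 FPKM or more, 1.23% were at least 2-fold lower. Pde6h (ENSDARG00000070439, chromosome 6), the cone-type inhibitory gene, was at 4.87 FPKM and 1.70 FPKM. That difference of 2.86-fold was about as large as that of pde6g but was far from the threshold (p of 0.669, authors' deposited table). A further row, chosen after its values were seen, is annotated in the file as zgc:112320 and paired with PDE6H in the table of current names. It was at 0.377 and 0.344 FPKM and was not tested.

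The summed level of pde6g and pde6h was 38.8 FPKM in wild-type cells and 14.3 FPKM in knockdown cells, a ratio of 2.72. The summed level of pde6a, pde6b and pde6c was 3.47 FPKM and 1.30 FPKM, a ratio of 2.67. Inhibitory RNA therefore stood 11.18 times above catalytic RNA in wild-type and 10.98 times in the knockdown. The matched pairs moved in opposite directions: pde6g over pde6a went from 21.6 to 16.6, and pde6h over pde6c from 2.89 to 4.14. The error of these ratios is unknown too. The inhibitory sum is set mostly by pde6g, which has no part in the catalytic sum. Pde6g made up 74.0% of the summed FPKM of all 10 genes in wild-type and 75.8% in the knockdown.

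Gucy2f, which encodes a membrane guanylate cyclase of photoreceptors, was lower in the knockdown without passing the threshold. The gene (ENSDARG00000025504, chromosome 15, 28711806 to 28728732) stood at 0.469 FPKM in wild-type cells and 0.146 FPKM in knockdown cells, 3.21-fold lower. Its p of 0.0012 was the smallest among members after pde6g, beside a q of 0.153 (both from the authors' deposited table). Tested genes at a mean below 1 FPKM varied more than abundant ones: 12.3% of them were at least 2-fold lower, against 2.66% of tested genes with means from 1 to 10 FPKM.

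The GCAP genes differed most among themselves. Guca1c (ENSDARG00000030758, chromosome 15), whose product GCAP3 is found in cones of the zebrafish retina, stood at 1.99 FPKM in wild-type cells and 0.0444 FPKM in knockdown cells. This 44.9-fold difference, a log2 fold change of -5.49, was the widest among the 10 genes. Its size rests on a knockdown value near 0: it was -3.86 on log2(FPKM + 0.1) and -1.52 on log2(FPKM + 1). Of the 18800 tested rows above 0 in both groups, 0.0426% were more negative than -5.49, a share that leaves out tested rows listed at 0 in the knockdown. Guca1c was nevertheless not called (p of 0.241, authors' deposited table). Guca1a (ENSDARG00000010454, chromosome 4, 21278782 to 21286666), encoding GCAP1, was at 1.05 FPKM and 0.740 FPKM, the smallest difference among tested members (1.41-fold; p of 0.259, authors' deposited table). Guca1b (ENSDARG00000013393, chromosome 23, 19515845 to 19519177), encoding GCAP2, was at 0.0141 FPKM and 0.0338 FPKM. Its level in wild-type was the lowest of any member, and its opposite direction was not tested. In wild-type guca1c thus stood 1.91 times above guca1a, and in the knockdown the order was the other way, with a ratio of 0.0600. The error of both ratios is unknown.

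Cnga1, the rod-type subunit of the cyclic GMP-gated channel, was at a very low level. The row (ENSDARG00000012125, chromosome 23, 44017504 to 44034669) stood at 0.0632 FPKM in wild-type cells and 0.0290 FPKM in knockdown cells and was not tested. Another copy, listed as CNGA1 (2 of 2) and chosen after its values were seen, was more abundant, at 0.810 and 0.587 FPKM, and was not called (p of 0.361, authors' deposited table).

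**Figure D2:**
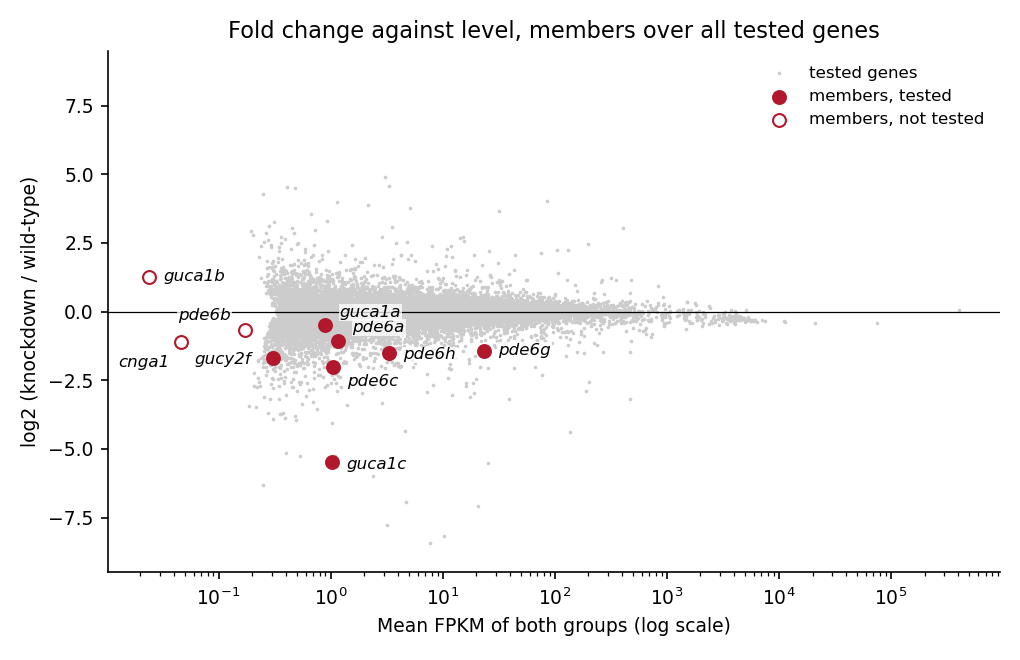
Log2 fold change of the knockdown over the wild-type against the mean FPKM of both groups (log axis), for all tested genes above 0 in both groups (grey) and for the 10 members (red; open where not tested). Pde6g lies below most genes of its level at -1.43, guca1c lies lowest at -5.49, and the untested members lie at the far left, where values rest on the least RNA.

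The order of the fold changes was not the order of the p values. Members also differ in how their rows lie in the genome, and whether this bears on their p values was not tested. Pde6c, pde6h and guca1c lie in merged loci, regions that the table gives as a single interval for several overlapping or adjoining genes. The interval of pde6c on chromosome 12 runs from 5385665 to 5755325 and holds 11 other rows, that of pde6h on chromosome 6 from 269175 to 297339 and holds the splicing factor gene rbfox2, and that of guca1c on chromosome 15 from 2849208 to 2949259 and holds the DNA repair gene mre11a. Rbfox2 was at 59.0 FPKM in both groups, and mre11a was at 9.11 and 8.51 FPKM. Both neighbours were several times more abundant than the member beside them, and neither was called. None of the 11 rows beside pde6c was called, and the most abundant of these, fra10ac1, was at 11.84 and 12.24 FPKM. Fragments shared between overlapping genes are apportioned in an FPKM estimate, and the labels do not say how the authors handled this.

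In a wider set of the table, rows in shared loci had larger p values by their median. That set includes members and was chosen by the change itself, so it is described here without a test. The levels of its rows in shared and own loci were not compared. Of tested genes with 1 FPKM or more in wild-type and at least 2-fold lower in the knockdown, 316 lie in a locus of their own and 94 in a shared one. An unadjusted p under 0.05 was given to 73.7% of the former and 31.9% of the latter, although their median log2 fold changes were alike, at -1.31 and -1.36. Of the tested members, gucy2f (under 1 FPKM) and guca1a (under 2-fold) fall outside this set. Among the members with a locus of their own, pde6g, gucy2f and pde6a had such a p and guca1a did not, and none of pde6c, pde6h and guca1c had one. The authors' p of guca1a, 0.259, was larger than those of pde6c (0.0858) and guca1c (0.241), so the members do not divide cleanly by locus. Over the table as a whole, 3.76% of tested genes were lower with such a p.

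**Figure D3:**
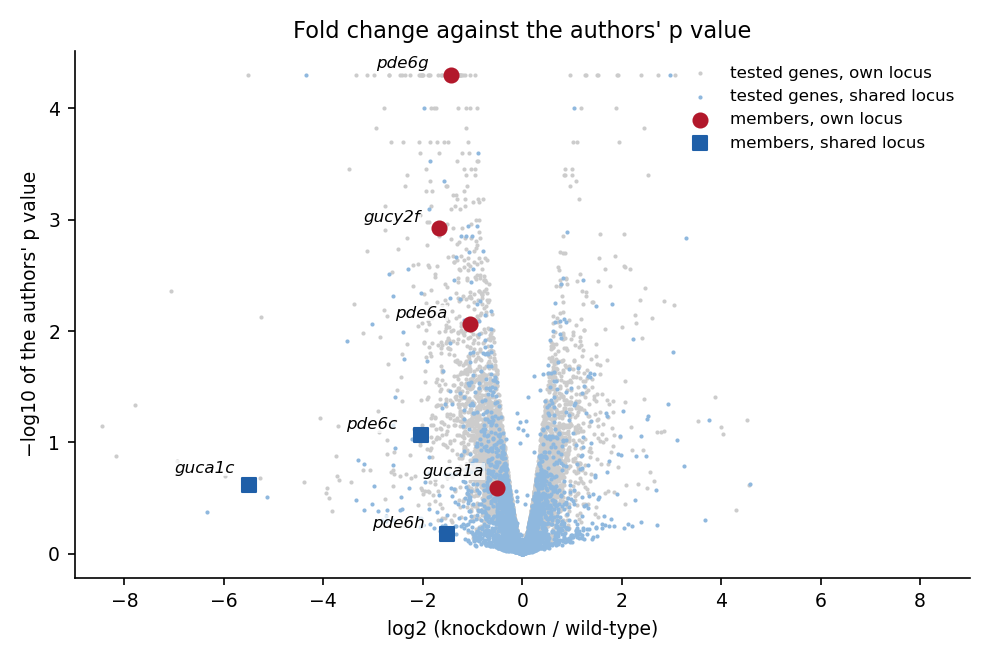
Log2 fold change against −log10 of the authors' p value for all tested genes above 0 in both groups, in grey where the gene has a locus of its own and in light blue where it shares one; the 7 tested members are drawn large. Pde6g, gucy2f and pde6a stand higher than pde6c, pde6h and guca1c, although the last 3 lie at least as far left as pde6g. Guca1a, also in a locus of its own, stands lower than pde6c and guca1c.

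The rod-type and cone-type members can be set side by side, as assigned from the retina. The rod-type genes pde6a, pde6b, pde6g and cnga1 had log2 fold changes from -1.43 to -0.67, with a median of -1.09. The cone-type genes pde6c, pde6h and guca1c had values from -5.49 to -1.52, with a median of -2.04. The nearest values of the 2 sets are close, -1.43 for pde6g and -1.52 for pde6h, and pde6b and cnga1 among the rod-type genes were not tested. Genes of neighbouring steps, chosen after their values were seen, showed both orders. Rod-type gngt1 and saga were at -2.68 and -2.05, beside cone-type gngt2a and arr3a at -1.58 and -1.17. Rod-type gnat1 and grk1a were at -0.53 and -0.55, beside cone-type gnat2 and grk7a at -1.25 and -1.67. The order depends on the grk7 copy chosen: grk7b, the other copy, was at 0.093. Grk1b, which is not assigned to rods or cones here and was not tested, was at -2.45. Rod-type rho was at -5.27, from 1.04 and 0.0268 FPKM, and was not called. The 3 cone-type members are also the 3 members in shared loci, so cell type and locus cannot be told apart here, and the difference was not tested.

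Outside the 10 genes, further cyclase and GCAP genes varied in both directions. Of 10 matched rows of this list, 5 were tested and none was called by the authors' test (0.438% of tested genes were called in either direction), with 1 at an unadjusted p under 0.05. Guca1g, a further GCAP gene of fish, stood at 2.57 FPKM in wild-type cells and 0.246 FPKM in knockdown cells, 10.5-fold lower (p of 0.00575 and q of 0.35, authors' deposited table). Its level in wild-type was above that of every GCAP gene among the 10. GUCA1A (1 of 2), chosen after its values were seen, was at 2.15 and 2.25 FPKM. Among cyclases, gc3 was more abundant than gucy2f, at 1.78 and 1.19 FPKM (p of 0.198, authors' deposited table). The row CU459185.1, paired with gucy2g in the table of current names, was at 0.998 and 1.74 FPKM. Rd3, which in mammals binds and inhibits photoreceptor guanylate cyclase, was at 3.59 and 5.13 FPKM. The list median was -0.31 over 9 rows above 0 in both groups, and 0.35, in the other direction, over the 5 tested rows. The second median is the value of a single row, GUCY2C (2 of 2), at 0.338 and 0.430 FPKM. Whether GUCY2C (2 of 2) and CU459185.1 act in photoreceptors was not examined.

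Other channel and exchanger genes were at or below 1.47 FPKM. None of 8 tested rows among 14 matched was called, and the median log2 fold change over the 14 was -0.19. At an unadjusted p under 0.05, 3 rows were lower and none was higher, beside 3.76% of all tested genes lower with such a p. Besides SLC24A2 (2 of 2), these were the channel subunit gene CNGB3 (1 of 2), at 0.752 and 0.338 FPKM, and SLC24A2 (1 of 2), at 0.695 and 0.268 FPKM, named after their values were seen. The cone-type channel gene cnga3a was at 0.902 and 0.689 FPKM, and CNGB1 (2 of 2), a modulatory channel subunit gene, was at 0.709 and 0.656 FPKM. In photoreceptors, exchangers of sodium, calcium and potassium carry calcium out of the outer segment. The list also holds slc24a3, slc24a4a, slc24a4b and cnga4, whose place in photoreceptors was not examined. Slc24a1, the rod-type exchanger gene, was at 1.05 and 0.905 FPKM, and SLC24A2 (2 of 2) was at 1.47 and 0.820 FPKM (p of 0.0257, authors' deposited table).

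PDE6 partner genes, which help to fold, carry or regulate PDE6, lay close to the centre of all genes by their median. None of 12 tested rows among 16 matched was called, and 0 had an unadjusted p under 0.05. The median log2 fold change over the 16 was -0.085 (0.021 when both groups are rescaled to TPM). Of the 16, 3 were at least 2-fold lower, beside 7.17% of all rows above 0 in both groups. All 3 were untested and under 1 FPKM in both groups. Pde6d, which encodes a carrier of prenylated proteins and is widely expressed, was at 17.0 and 16.9 FPKM. The small GTPase gene arl3 was at 32.6 and 31.2 FPKM. The lipid carrier gene unc119b was at 24.6 and 21.96 FPKM, and its relative unc119.1 at 17.6 and 17.7 FPKM. The partner genes named here act in many ciliated cells and not in photoreceptors alone, which need not hold for the rest of the list.

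Cyclic GMP genes of other tissues held no call either. Of 27 matched rows 16 were tested, none was called and 0 had an unadjusted p under 0.05, and the median over 25 rows above 0 in both groups was -0.043 (0.063 rescaled to TPM). The natriuretic peptide receptor genes npr1a, at 4.21 and 4.25 FPKM, and NPR2, at 4.22 and 4.54 FPKM, are receptors with cyclase activity. The soluble guanylate cyclase subunit gene gucy1b3 was at 3.71 and 3.90 FPKM, and the phosphodiesterase gene PDE3B was at 4.91 and 3.97 FPKM.

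The list of opsin and transducin genes and the list of shut-off genes held calls of their own. Of 12 tested opsin and transducin genes 2 fell, the transducin gamma subunit genes gngt1, from 14.2 to 2.21 FPKM, and gngt2a, from 13.9 to 4.67 FPKM. The beta subunit genes gnb1a, at 58.2 and 61.9 FPKM, and gnb1b, at 23.2 and 26.0 FPKM, which many cell types express, were not called. Of 8 tested shut-off genes 3 fell, both S-arrestin genes and recoverin; the recoverin-related gene rcvrna was at 8.37 and 5.98 FPKM, and the opsin kinase gene grk7b was at 4.77 and 5.09 FPKM. Of all tested genes, 0.332% were called lower. At an unadjusted p under 0.05 in the authors' test, 5 of the 12 and 5 of the 8 were lower, beside 3.76% of all tested genes. The same held for 3 of the 7 tested members. The list medians were -0.53 over 23 opsin and transducin rows and -1.67 over 9 shut-off rows. The 10 members and these genes come from the same comparison and the same libraries.

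**Figure D4:**
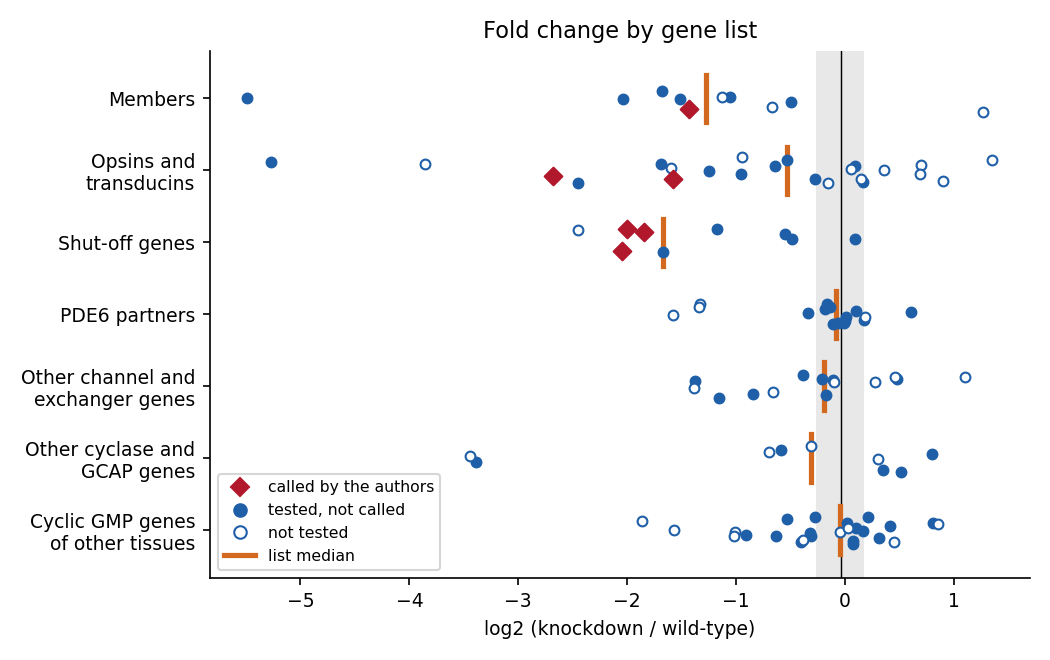
Log2 fold change of the knockdown over the wild-type for each gene above 0 in both groups, by list; diamonds are called genes, open circles were not tested, orange bars are list medians, and the grey band spans the quartiles of all tested genes (-0.26 to 0.17). The list medians are -1.28 for the members, -0.53 for opsins and transducins, -1.67 for shut-off genes, -0.085 for PDE6 partners, -0.19 for other channel and exchanger genes, -0.31 for other cyclase and GCAP genes and -0.043 for cyclic GMP genes of other tissues; the band shows single genes, not the spread of a median.

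Markers of the tissue and of other cells moved in this comparison too. Of 11 tested pineal photoreceptor and melatonin markers 1 fell, the homeobox gene otx5, and all 11 were lower. At an unadjusted p under 0.05, 6 of them were lower, beside 3.76% of all tested genes. The summed FPKM of the list was 341 and 196. The marker flh made up most of these sums, at 238 and 129 FPKM, and was not called (q of 0.0986, authors' deposited table). Neurod, at 46.9 and 35.6 FPKM, was not called either, and asmt was listed at 0 in both groups. The summed FPKM was 41.4 and 38.4 for 6 parapineal markers, 260.1 and 246.7 for 6 neuronal markers, and 126 and 135 for 12 retina progenitor markers, with no call in these lists and 0, 0 and 2 genes at an unadjusted p under 0.05. It was 53.4 and 26.9 for 13 lens markers with none called. At an unadjusted p under 0.05, 8 lens markers were lower and 1, crygn1, was higher (0.114 and 0.586 FPKM), and cryaa, which was not tested, was listed at 0 in the knockdown. The summed FPKM was 224 and 75.0 for 10 genes listed as markers of pigment cells and pigment epithelium, of which 6 fell. Rpe65a and rlbp1b were among these 6, and whether they mark pigment epithelium in these cells was not tested. For 8 endothelial markers the summed FPKM was 102 and 191, and 4 of them rose (0.106% of tested genes rose). For 10 erythroid rows it was 133 and 3.90, and 3 of them fell, both hbae1 rows being listed at 0 in the knockdown. The part of these cells in the values of the 10 genes was not tested. The targeted gene tbx2b, at 17.4 and 18.3 FPKM, gave no check of the knockdown, because a splice morpholino need not lower the RNA counted for a gene.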

How the data were processed

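RNA sequencing of sorted cells was summarised by the authors in a single table. The submitters' processing notes name the build Zv9 and the tools TopHat2, Bowtie2, Cuffdiff, Trimmomatic 0.32, CASAVA 1.8.2 and FastQC 0.10.0. Settings, annotation and the treatment of technical replicates are not given there. Per the file headers, the authors deposited 1 FPKM value for each gene and group, a log2 fold change of MO against NIC (the uninjected controls), and a p value, a q value and a test statistic for each gene. The statistic, deposited as a score, was not used. The deposited log2 values of the 10 genes equal those recomputed from FPKM; 3 other rows differ by more than 0.001. The deposited q equals a Benjamini-Hochberg adjustment of p over the 18954 tested genes to within 5.2e-07.

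Group values allow no test across replicates; calls are therefore those of the authors, and lists are described by counts and medians. Fold changes carry no pseudocount. List names were matched to 180 rows, 174 by the file's symbol, ignoring case and copy numbers, and 6 clone names by gene ID through a table of current names. The exo-rhodopsin gene and the promoter sequences are not analysed here. Named genes are every member, every called gene of a pathway list, and up to 4 with the highest mean FPKM; marker lists are given by counts and sums with up to 3 named. The members and lists were chosen with earlier results of these data known. The median and adjustment code was tested on simulated data. Python 3.11.15, pandas 2.3.3, numpy 2.4.6 and matplotlib 3.10.9 were used. Depth per library is unknown, so no counting interval is given.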

Additional observations from a re-analysis of the deposited data

How the results depend on the processing

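No paired analysis was possible because the table holds 1 value per group and its columns carry no replicate number; leaving out replicates was not run for the same reason. The count of called members was 1 also with q under 0.1. Keeping members at 1 FPKM or more in at least 1 group, or in a locus of their own, could not change it, since pde6g meets both. The member median of -1.28 was -0.45 on log2(FPKM + 1), -1.09 on log2(FPKM + 0.1), -1.52 over 5 members with a mean of 1 FPKM or more (pde6a, pde6c and guca1c pass through wild-type alone, and guca1a drops out), -1.17 rescaled to TPM, -1.11 rescaled to TPM without the most abundant row, and -1.06 over 7 members in a locus of their own. It was -1.52 over the 7 tested members and -1.13 without pde6g, settings chosen after seeing the data. Rescaling to TPM adds 0.106 to every log2 fold change.

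On log2(FPKM + 1) the medians were -0.073 for other channel and exchanger genes, -0.045 for other cyclase and GCAP genes, -0.15 for opsins and transducins and -0.72 for shut-off genes. Over genes with a mean of 1 FPKM or more they were -0.84 (a single gene), -0.036, -0.79 and -1.51, and for PDE6 partners -0.034. Rescaled to TPM they were -0.087, -0.21, -0.42 and -1.56. At these settings the medians near 0 changed direction. PDE6 partners went to 0.021 rescaled to TPM. Cyclic GMP genes of other tissues went to 0.063 rescaled to TPM and to 0.017 over genes with a mean of 1 FPKM or more. The common shift accounts for the TPM changes by construction, and the cause of the other was not tested. Over tested rows alone, a setting that was not planned, the medians were -1.10 for opsins and transducins and -1.42 for shut-off genes. At the same setting they were -0.30 for other channel and exchanger genes and -0.034 for PDE6 partners. Other cyclase and GCAP genes were at 0.35, the value of GUCY2C (2 of 2), and cyclic GMP genes of other tissues at 0.046. Depth is unknown, so values under 1 FPKM carry an error that cannot be given. Among them are both values of gucy2f, pde6b, cnga1 and guca1b, and the knockdown values of guca1c, pde6a, pde6c and guca1a.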
